A study of Mus musculus with 58 samples.

Results

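The NMDA receptor subunit genes Grin1, Grin2a, Grin2b, Grin2c, Grin2d and Grin3a were followed across the prefrontal cortex of young Tanc2 mice treated with fluoxetine, lithium or vehicle. The 6 genes were matched by symbol to the Ensembl genes of the deposited table, which holds 18088 genes, and all 6 passed the filter on low values that left 17925 genes for testing. The remaining subunit gene, Grin3b, is not analysed here. RNA sequencing was done on 58 libraries of C57BL/6J mice, each labelled by genotype, drug and sex and taken here as 1 mouse. In mice labelled wild type (WT), 9 received vehicle, 10 fluoxetine and 10 lithium, and in mice labelled heterozygous for Tanc2 (HT), 10 received vehicle, 10 fluoxetine and 9 lithium. Each of these 6 arms held females and males, 4 or 5 of each. Drug reached the pups through their dam's milk for 3 weeks, from postnatal day 3 to day 24, and the tissue was taken at day 25. The labels name no litter or dam, so mice that shared one cannot be told from those that did not, and p-values measure the spread between these libraries.

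NMDA receptors are glutamate-gated cation channels made of a pair of GluN1 subunits, encoded by Grin1, and a pair of GluN2 or GluN3 subunits. They pass calcium when glutamate and a co-agonist, glycine or D-serine, are bound and the membrane is depolarised, which makes them detectors of coincident activity in synaptic plasticity. In the maturing forebrain GluN2B-rich receptors are joined and partly replaced by GluN2A-rich ones, GluN2C is known from cerebellar granule cells and some glia, GluN2D from interneurons, and GluN3A from juvenile synapses. Tanc2 encodes a postsynaptic scaffold protein, fluoxetine is a serotonin reuptake inhibitor, and lithium, used in bipolar disorder, inhibits the kinase GSK3 and enzymes of inositol recycling.

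What the members share is the channel itself. Its signature is a 9-residue motif in the third membrane segment, whose inner run YTANLAA is the same in the 3 genes shown. The outer residues are S and F in Grin1 and Grin2c, and T and V in Grin3a. The 60 coding bases around the motif are shown for Grin1, Grin2c and Grin3a, 1 member of each subunit class, so that the family likeness can be read directly. Capitals mark the 27 bases that code for the motif, and each sequence is given 5′ to 3′ on the coding strand, which is the minus strand of build GRCm38 (GENCODE annotation).
Grin1, chr2:25297187-25297246, exon 15: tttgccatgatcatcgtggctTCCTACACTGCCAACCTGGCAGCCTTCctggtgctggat
Grin2c, chr11:115253737-115253796, exon 11: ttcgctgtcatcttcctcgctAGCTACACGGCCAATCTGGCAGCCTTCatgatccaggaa
Grin3a, chr4:49770458-49770517, exon 3: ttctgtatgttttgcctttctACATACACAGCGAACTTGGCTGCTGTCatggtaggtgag
Of the 27 motif bases, 17 were identical in these 3 genes. Over the 60 bases Grin1 and Grin2c shared 44, Grin2c and Grin3a 36, and Grin1 and Grin3a 35. Over whole coding sequences, translated and aligned, Grin2a and Grin2b shared 56.6% of residues and Grin2c and Grin2d 56.7%. Grin1 shared 27.2% to 29.6% with the other 5, and Grin3a 28.2% to 29.3%.

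The genes (Ensembl identifiers as in the table) are spread over 6 chromosomes. Grin1 (ENSMUSG00000026959) lies at chr2:25291181-25319187, Grin2a (ENSMUSG00000059003) at chr16:9567898-9995560 and Grin2b (ENSMUSG00000030209) at chr6:135713233-136173511. Grin2c (ENSMUSG00000020734) lies at chr11:115249169-115267243, Grin2d (ENSMUSG00000002771) at chr7:45831883-45878378 and Grin3a (ENSMUSG00000039579) at chr4:49661611-49845744. Outside the coding sequence the members differ far more in length, Grin2b and Grin2a being the long ones. In the transcript used, the 3′ UTR of Grin2b spans 18.86 kb and that of Grin2a 9.93 kb, against 3.62 kb for Grin3a, 1187 bases for Grin1, 0.9 kb for Grin2d and 0.4 kb for Grin2c. Exons merged over all annotated transcripts came to 24.84 kb for Grin2b, 17.93 kb for Grin2a, 12.28 kb for Grin3a, 9.7 kb for Grin1, 6.66 kb for Grin2d and 5.04 kb for Grin2c. Annotated genes overlap 5 of the members, all but Grin2a. On the strand opposite Grin2d lie Kdelr1 (mean 1492.2 normalized reads) and Gm45441 (161.9), and opposite Grin2b lies Gm26653 (25.5). Ppp3r2 (9.7) lies inside Grin3a on the same strand. Libraries were strand-specific per the labels, but no source used here says whether counting used the strand, so a part of the Grin2d value cannot be told from its partners.

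The deposited unit is the normalized read, a read count divided by a size factor of its library. Recovered depths ran from 23271044 to 37801615 reads per library. Tanc2 itself was not lower in mice labelled HT: it ran from 6240 to 9106 normalized reads with a median of 8150 there, and from 6566 to 8155 with a median of 7637 in WT, so genotype is given as labelled. All 8 markers of excitatory cortical neurons were present in every library, and olfactory bulb markers (6 genes, summed) varied from 1741 to 20643 normalized reads between libraries. Gm10221, a processed pseudogene, had reads in 27 libraries, namely each of the 19 from lithium-treated mice, the 5 of HT females given fluoxetine and 3 of 5 of WT females given it, and in none of the other 31. It therefore divides lithium from vehicle completely, and whatever it marks cannot be told apart from lithium in a comparison of those arms.

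Grin1 was the most abundant subunit per length. Divided by merged exon length, normalized reads per kb were 1540 ± 102 (SD, n = 58) for Grin1, the obligatory subunit, and 845 ± 98.5 for Grin2b. Grin2a followed with 382 ± 45, Grin2c with 272 ± 34.9, Grin3a with 140 ± 15.1 and Grin2d with 73.3 ± 11.6. By this length Grin1 and Grin2b did not overlap with each other or with the next gene in any library. Grin2c overlapped with Grin3a and Grin3a with Grin2d at the edges of their ranges. Grin2a and Grin2c overlapped more widely, the lowest Grin2a value being 267 and the highest Grin2c value 365. In WT fluoxetine female 3 their order was reversed, with Grin2a at 299.6 and Grin2c at 365.5. Other lengths gave other overlaps. Per kb of coding sequence Grin1 (5200 ± 343) overlapped with Grin2b (4720 ± 550). Per kb of the longest transcript Grin2b (873 ± 102) overlapped with Grin2a (468 ± 55.1). The order of Grin2c and Grin3a depends on the length used: per kb of coding sequence Grin3a came to 504 ± 54.6 and Grin2c to 368 ± 47.3. By its mean among the tested genes, not corrected for length, Grin2b stood at percentile 99.3, Grin1 at 98.7, Grin2a at 95.8, Grin3a at 78.2, Grin2c at 73.6 and Grin2d at 52.9. In a bulk sample fewer cells of a type and less RNA per cell cannot be told apart.

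**Figure D1:**
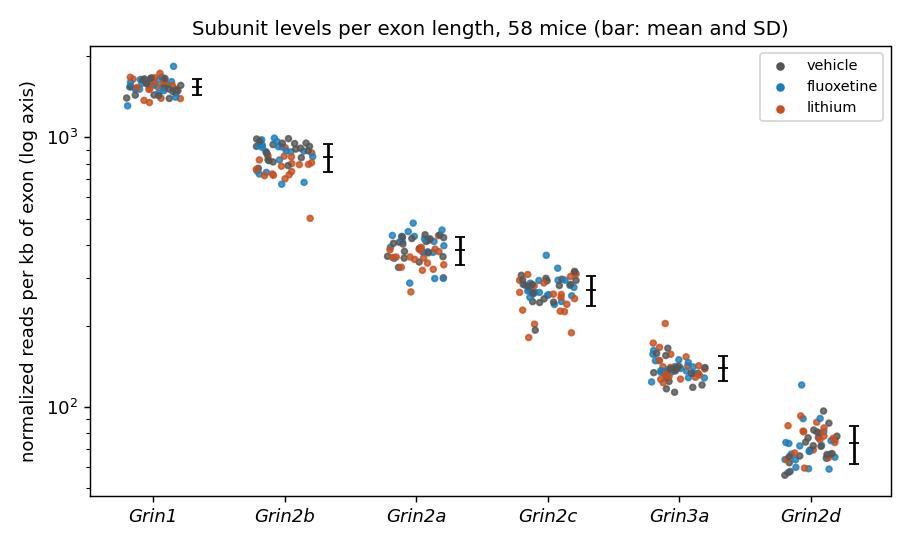
Normalized reads per kb of merged exon (log axis) for each of the 6 subunit genes in 58 mice, with points coloured by drug and bars giving the mean and SD. Grin1 lies at 1540 and Grin2d at 73.3 on average, and the single low Grin2b point at 501 is a lithium-treated HT female.

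Grin1 passed in none of the 15 comparisons, and its arms overlapped. In WT it ran from 13583 to 16086 normalized reads with a median of 14677 under vehicle, from 13677 to 17793 with a median of 14936 under fluoxetine, and from 13309 to 16777 with a median of 15323 under lithium. In HT the medians were 14641, 15057 and 15001 under vehicle, fluoxetine and lithium. Its log2 difference for lithium over both genotypes was 0.02 ± 0.03 (SE, limma, adjusted p = 0.754, 95% interval -0.05 to 0.08), the narrowest interval of the 6 genes in that comparison.

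**Figure D2:**
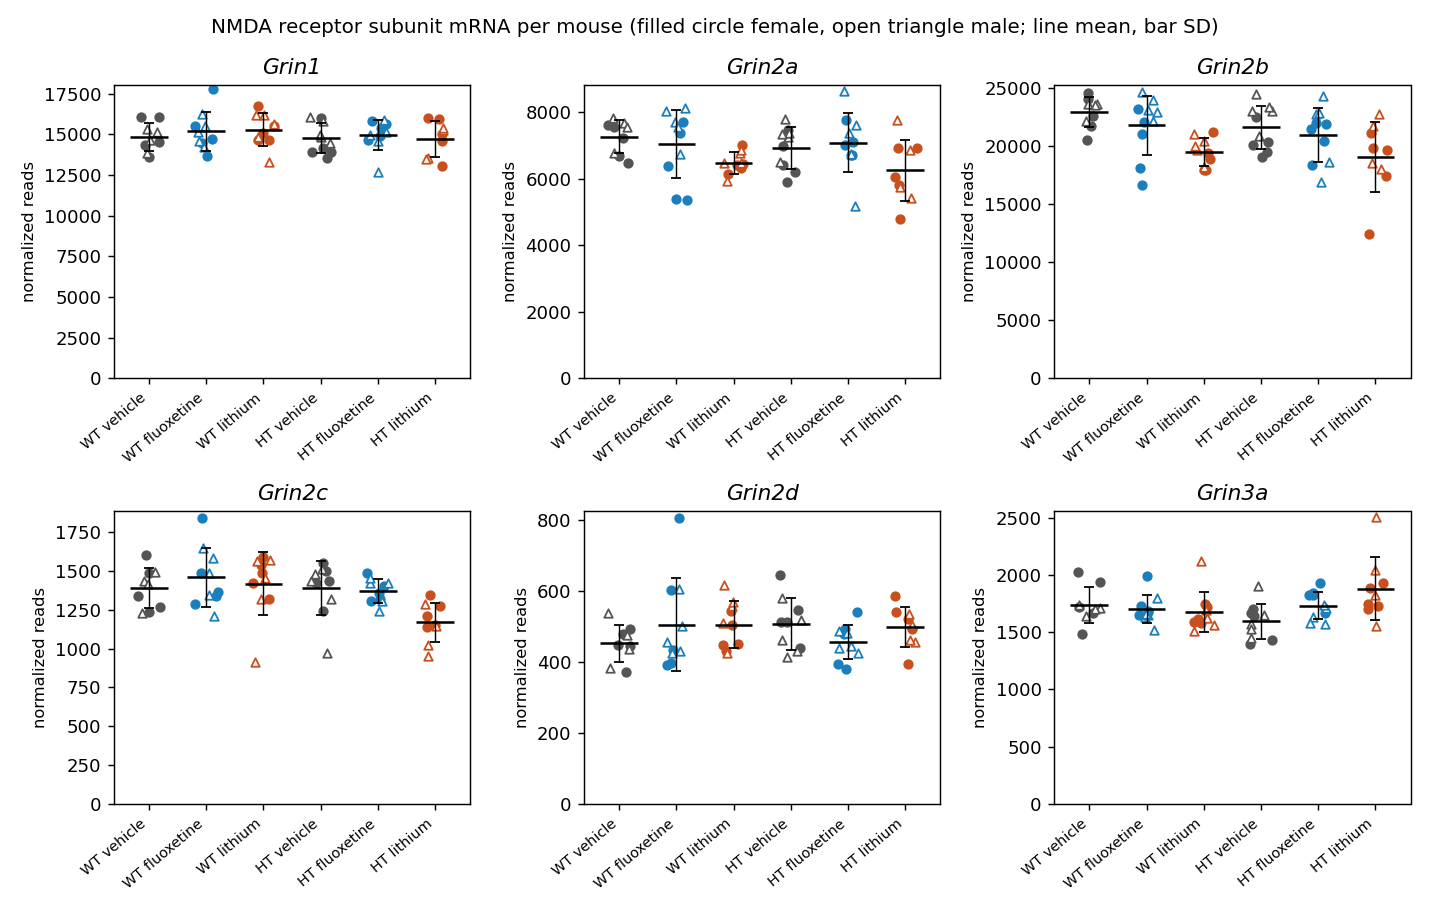
Normalized reads of each subunit gene per mouse in the 6 arms, from 0, with filled circles for females, open triangles for males, a line at the mean and a bar for the SD. Under lithium the Grin2b points shift down in both genotypes, and in HT the Grin2c points shift down and the Grin3a points up.

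Grin2b, which encodes the GluN2B subunit of juvenile synapses, was lower under lithium. In WT it ran from 20530 to 24588 normalized reads with a median of 23582 under vehicle (n = 9) and from 17923 to 21202 with a median of 19582 under lithium (n = 10). Of the 10 lithium mice, 8 lay below the lowest vehicle mouse, and all 10 lay below the vehicle median. Grin2b fell by 15.3%, a log2 difference of -0.24 ± 0.07 (limma, Benjamini-Hochberg adjusted p = 0.0209). It was the sole member of 6 that passed for lithium in WT, where 7.47% of all genes tested passed. In HT it ran from 19079 to 24515 with a median of 21699 under vehicle (n = 10) and from 12452 to 22754 with a median of 19687 under lithium (n = 9). There 7 of 9 lithium mice lay below the vehicle median, and the arms overlapped. The log2 difference in HT was -0.19 ± 0.07 and did not pass (limma, adjusted p = 0.0525). Without the lowest mouse, HT lithium female 4 at 12452, it was -0.12 ± 0.06 (limma, adjusted p = 0.183). In the interaction of lithium with genotype 0 of 6 members passed, as did 0.0% of all genes (limma, smallest adjusted p among the members 0.537). With both genotypes weighed together Grin2b fell by 0.21 ± 0.05 (limma, adjusted p = 0.000741), and without HT lithium female 4 by 0.18 ± 0.04 (limma, adjusted p = 0.000902).

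Grin2a, encoding the GluN2A subunit that gains weight as synapses mature, was the other member to pass over both genotypes. In WT it ran from 6479 to 7816 normalized reads with a median of 7545 under vehicle and from 5919 to 7009 with a median of 6449 under lithium. All 10 lithium mice lay below the vehicle median and 7 of them below the lowest vehicle mouse. In HT it ran from 5913 to 7806 with a median of 7117 under vehicle and from 4794 to 7753 with a median of 6046 under lithium, and the arms overlapped. Within 1 genotype Grin2a did not pass, with log2 differences of -0.17 ± 0.07 in WT (limma, adjusted p = 0.159) and -0.15 ± 0.07 in HT (limma, adjusted p = 0.152). Over both genotypes Grin2a fell by 10.4%, a log2 difference of -0.16 ± 0.05 (limma, adjusted p = 0.017). That made 2 of 6 members passing for lithium over both genotypes, both lower, where 24.3% of all genes tested passed (2164 higher and 2187 lower). Without HT lithium female 4, Grin2a over both genotypes was at -0.14 ± 0.05 (limma, adjusted p = 0.0354). The median log2 difference was -0.05 over the 6 members and -0.002 over all genes tested.

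Library composition by transcript length moved with these changes in Grin2a and Grin2b. For each library, the slope of the log2 deviation of all genes against exon length was taken, in log2 units per 10-fold length. Its median was 0.06 in WT vehicle, 0.05 in HT vehicle and -0.05 in both lithium arms, and its lowest value was -0.39 in HT lithium female 4, the library lowest in Grin2a and Grin2b alike. Across the 58 libraries Grin2b had a Pearson r of 0.77 with this slope (Spearman 0.67, and 0.65 without the 2 libraries of most extreme slope), and 0.66 after group means were subtracted. For Grin2a the r was 0.56 (Spearman 0.49, and 0.5 without the 2 extremes), and for the other 4 members it lay between -0.17 and 0.15. Both genes are part of the genes that set the slope. With length and GC trends removed from every library, Grin2b over both genotypes was at -0.13 ± 0.04 (limma, adjusted p = 0.00864) and in WT at -0.16 ± 0.05 (limma, adjusted p = 0.0448). Grin2a was then at -0.09 ± 0.05 and no longer passed (limma, adjusted p = 0.178). Grin2b thus passed with and without the trend, at a smaller size, and Grin2a with it only.

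The presence of Gm10221 reads was also entered as a term. Grin2b over both genotypes was then at -0.29 ± 0.09 (limma, adjusted p = 0.117) and Grin2a at -0.17 ± 0.10 (limma, adjusted p = 0.376). With sex additive, this fit reads the term from the fluoxetine arms, and the term itself was 0.07 ± 0.08 for Grin2b and 0.01 ± 0.08 for Grin2a. In the one group holding libraries of both kinds, WT fluoxetine females, Grin2b was 18179, 21082 and 23247 with such reads and 16659 and 22104 without, so the ranges overlapped.

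The mitochondrial transcript mt-Atp6 separated lithium from vehicle without overlap within each genotype. It ran from 15217 to 28778 normalized reads in WT vehicle and from 32545 to 67309 in WT lithium, and from 15265 to 33350 in HT vehicle and from 39874 to 76292 in HT lithium. Over the 58 libraries the r with mt-Atp6 was -0.32 for Grin2b, -0.22 for Grin2a, -0.16 for Grin2c and 0.13 for Grin3a. For Grin1 it was -0.1 and for Grin2d 0.2. After group means were subtracted, the r was 0.18 for Grin2b, 0.17 for Grin2a, 0.09 for Grin2c and -0.31 for Grin3a. It was then -0.33 for Grin1 and 0.21 for Grin2d. Its part in the subunit differences was not tested.

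**Figure D3:**
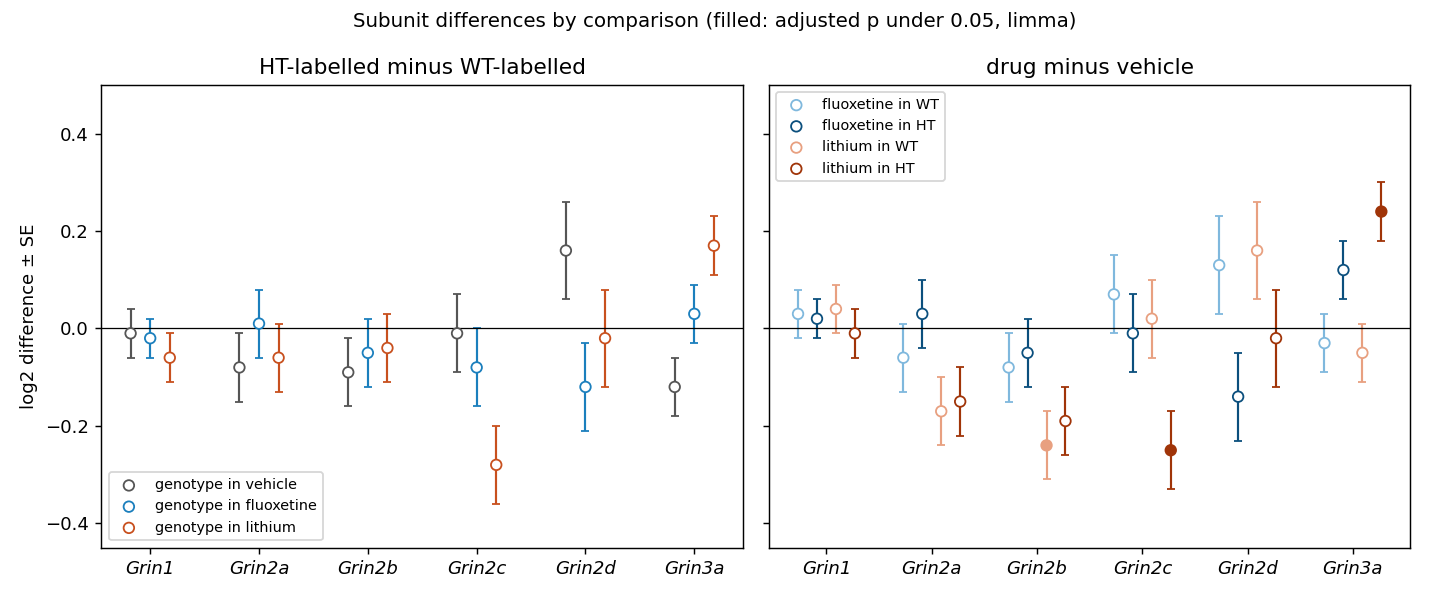
Log2 differences with SE for the 6 subunit genes, HT minus WT in each drug arm (left) and drug minus vehicle in each genotype (right), with filled points for an adjusted p under 0.05 in limma. The 3 filled points are Grin2b for lithium in WT at -0.24, and Grin2c at -0.25 and Grin3a at 0.24 for lithium in HT.

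In HT mice the members that passed under lithium were other ones, Grin2c and Grin3a. Grin2c, encoding GluN2C, ran from 972 to 1552 normalized reads with a median of 1436 under vehicle and from 950 to 1342 with a median of 1153 under lithium. All 9 lithium mice lay below the vehicle median, and 1 of them below the lowest vehicle mouse. Grin2c fell by 16.1%, a log2 difference of -0.25 ± 0.08 (limma, adjusted p = 0.0218). The call was lost without HT lithium male 2 (-0.22 ± 0.08, limma, adjusted p = 0.0675) and without HT vehicle male 5 (-0.23 ± 0.08, limma, adjusted p = 0.0518).

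Grin3a, whose GluN3A product makes receptors that pass little calcium, ran from 1393 to 1906 normalized reads with a median of 1606 under vehicle in HT and from 1555 to 2506 with a median of 1828 under lithium. Of the 9 lithium mice, 8 lay above the vehicle median and 3 above the highest vehicle mouse. Grin3a rose by 17.9%, a log2 difference of 0.24 ± 0.06 (limma, adjusted p = 0.00476), and it passed with each of the 58 libraries left out in turn. For lithium in HT, 2 of 6 members passed, 1 in each direction, where 16.3% of all genes tested passed. With length and GC trends removed the values were -0.28 for Grin2c and 0.29 for Grin3a, and both passed. With the Gm10221 term they were -0.20 ± 0.12 (limma, adjusted p = 0.398) and 0.14 ± 0.09 (limma, adjusted p = 0.453).

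In WT neither gene passed. Grin2c ran from 1230 to 1605 under vehicle with a median of 1413 and from 912 to 1589 under lithium with a median of 1471, a log2 difference of 0.02 ± 0.08 (limma, adjusted p = 0.937). Grin3a ran from 1483 to 2029 under vehicle with a median of 1713 and from 1512 to 2120 under lithium with a median of 1620, a log2 difference of -0.05 ± 0.06 (limma, adjusted p = 0.714). The difference between the genotypes in lithium response was 0.29 ± 0.09 for Grin3a (unadjusted p = 0.0017, limma adjusted p = 0.537) and -0.27 ± 0.11 for Grin2c (unadjusted p = 0.019, limma adjusted p = 0.653). Neither passed, nor did any other gene of the table, so the lithium response of these 2 genes was not shown to differ between genotypes.

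For the genotype itself no member passed under any drug. In vehicle 0 of 6 passed, with log2 differences of HT minus WT from -0.12 to 0.16 (0.0% of all genes passed, and 4.54% had an unadjusted p below the same level). In fluoxetine 0 of 6 passed (0.0% of all genes), with values from -0.12 to 0.03. In lithium 0 of 6 passed (0.0% of all genes, 11.2% by unadjusted p), with Grin2c at -0.28 ± 0.08 (unadjusted p = 0.00092, limma adjusted p = 0.155) and Grin3a at 0.17 ± 0.06 (unadjusted p = 0.00906, limma adjusted p = 0.28). All 9 HT lithium mice lay below the WT lithium median of Grin2c, while the arms overlapped, with WT lithium male 1 at 912. Without that mouse the Grin2c difference was -0.35 ± 0.07 and passed (limma, adjusted p = 0.0273), so that 1 of 6 members passed in place of 0. The share of all genes passing in that fit is not given here. Over the 3 drug arms together 0 of 6 passed (0.0% of all genes), the largest being Grin2c at -0.12 ± 0.05 (limma, adjusted p = 0.586). By unadjusted p under 0.05, the members counted were 0 in vehicle, 0 in fluoxetine, 2 in lithium and 1 over the 3 arms. The shares of all genes were 4.54%, 6.21%, 11.2% and 7.58%. By edgeR and DESeq2 on recovered reads 0 of 6 passed in each.

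In the limma fit 0 of 6 members passed for fluoxetine, and 0 by edgeR and DESeq2. In WT, where 1.38% of all genes passed, the 6 log2 differences ran from -0.08 for Grin2b to 0.13 for Grin2d. In HT, where 3.54% passed, they ran from -0.14 for Grin2d to 0.12 for Grin3a, and Grin3a had the smallest p (0.12 ± 0.06, unadjusted p = 0.045, limma adjusted p = 0.278). Over both genotypes 6.15% of all genes passed and the members lay between -0.07 and 0.05. For Grin2b over both genotypes the 95% interval was -0.16 to 0.03, against -0.31 to -0.12 for lithium. The 2 drugs share the vehicle mice, so these values are given side by side. Grin2d had the largest difference between genotypes in fluoxetine response, -0.27 ± 0.14 (limma, adjusted p = 0.794), in an interaction that 0 of 6 members and 0.0% of all genes passed. Its spread was widest in WT fluoxetine, from 392 to 804 normalized reads with a median of 445, with WT fluoxetine female 3 at the top, the library with the highest sum of olfactory bulb markers.

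Sex made no difference that passed for any member. Over the 6 arms 0 of 6 passed, where 0.301% of all genes tested did. For female minus male Grin2b was at -0.11 ± 0.04 (unadjusted p = 0.00544, limma adjusted p = 0.237) and Grin2a was at -0.09 ± 0.04 (unadjusted p = 0.0322, limma adjusted p = 0.434). In the interaction of fluoxetine with sex 0 of 6 passed, where 0.0335% of all genes did, and in that of lithium with sex 0 of 6 passed, where 0.0% did. The counts by edgeR and DESeq2 were 0 of 6 in these 3 comparisons too. Under lithium Grin2b was at -0.22 ± 0.07 over both genotypes in females alone (limma, adjusted p = 0.0572) and at -0.21 ± 0.06 in males alone (limma, adjusted p = 0.0226), a nearly equal size in each sex.

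The members did not vary as a block. Grin2a and Grin2b went together across the 58 libraries (Pearson r = 0.89, Spearman 0.88, and 0.87 within groups), and their log2 ratio, Grin2a over Grin2b, was -1.62 ± 0.08 (SD, n = 58). The ratio varied little between arms, from -1.66 ± 0.09 in WT vehicle to -1.57 ± 0.08 in HT fluoxetine, with WT lithium at -1.59 ± 0.04 and HT lithium at -1.60 ± 0.13. Grin2c and Grin3a went in opposite directions (Pearson r = -0.61, Spearman -0.48, and -0.58 within groups). Without the 2 libraries of most extreme Grin2c the r was -0.46. HT lithium male 2 had the highest Grin3a, 2506, and the second lowest Grin2c, 950, and WT lithium male 1 had the lowest Grin2c, 912, and the second highest Grin3a, 2120. Correlations here describe libraries that share their normalization and carry no test.

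**Figure D4:**
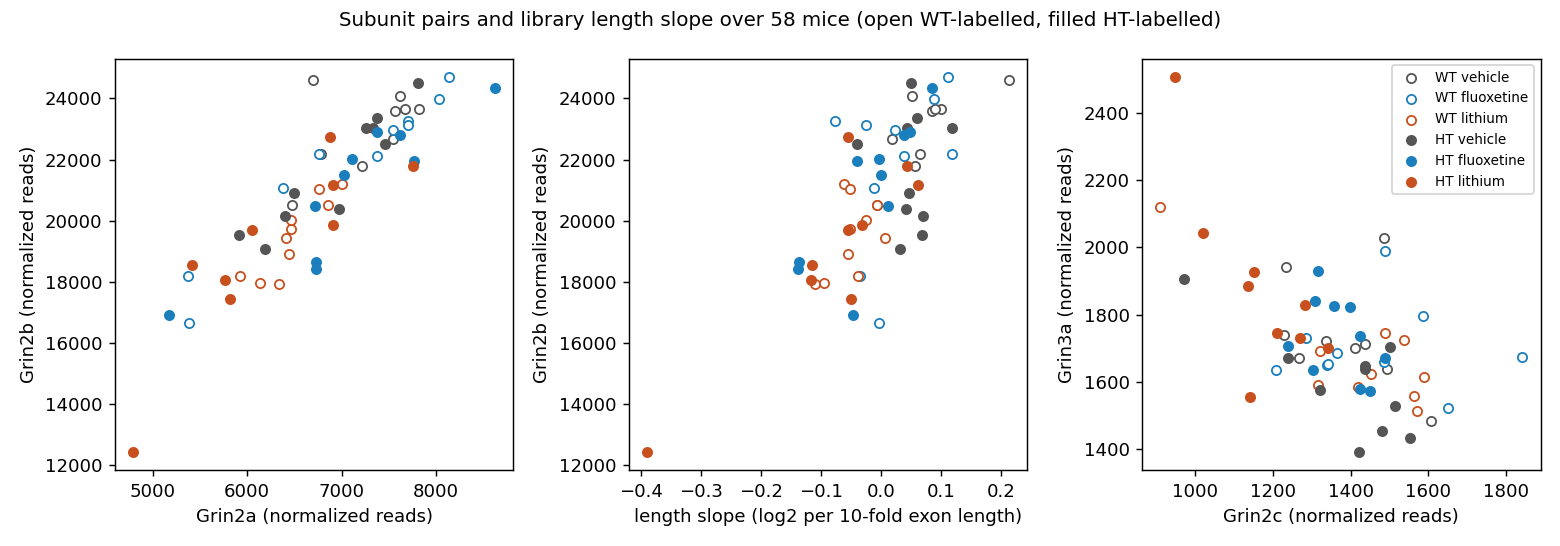
Grin2b against Grin2a, Grin2b against the length slope of each library, and Grin3a against Grin2c, in normalized reads for 58 mice (open WT, filled HT; colour gives the drug). The point at the lower left of the first 2 panels is HT lithium female 4, with 12452 for Grin2b, 4794 for Grin2a and a slope of -0.39.

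Other cell and tissue markers moved with some members. Grin2d had an r of 0.78 with the summed olfactory bulb markers and 0.70 with the 9 inhibitory neuron markers, and -0.72 with the 8 excitatory neuron markers. Grin1 had the opposite signs, 0.66 with excitatory markers and -0.65 with olfactory bulb markers, and Grin2a was at -0.51 with the latter. The signs were the same without the 2 most extreme libraries of each pair. With olfactory bulb markers the r was then 0.75 for Grin2d, -0.61 for Grin1 and -0.56 for Grin2a. With inhibitory neuron markers it fell to 0.58 for Grin2d. With excitatory neuron markers it was -0.68 for Grin2d and 0.62 for Grin1. The median sum of olfactory bulb markers was 3798 in WT vehicle, 5307 in WT lithium, 7462 in HT vehicle and 7248 in HT lithium, with wide overlap, and of these 6 markers only Eomes was at 0, in 1 library. Summed markers of excitatory neurons had medians of 68784 in WT vehicle and 67538 in WT lithium, and of 63472 in HT vehicle and 68326 in HT lithium. The part of tissue makeup in the subunit differences was not tested. For lithium over both genotypes, where 24.3% of all genes passed, none of the 8 myelinating oligodendrocyte markers passed, with all 8 below 0 and a median of -0.135. Of 7 striatal markers 3 passed as higher, with all 7 above 0 and a median of 0.353. Of 5 thalamic markers 1 passed as lower, with all 5 below 0 and a median of -0.079, and their sum had an r of 0.47 with Grin2b (0.41 within groups), the largest of the 11 marker sums for that gene. Of 6 endothelial and mural markers 1 passed as lower, with all 6 below 0 and a median of -0.096. None of the 6 olfactory bulb markers passed, with 5 above 0 and a median of 0.392. None of the 9 inhibitory neuron markers passed, with 8 above 0 and a median of 0.093. In each of the excitatory neuron, oligodendrocyte precursor and microglia lists 1 marker passed as higher, with medians of 0.051, 0.018 and 0.04. No astrocyte or cerebellar marker passed, with medians of 0.005 and -0.012.

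The genes nearest to each member in their pattern over the 58 libraries were searched among 11857 genes with a mean of at least 100 normalized reads. For Grin1 they were Dnm1, a neuronal dynamin of vesicle retrieval (r = 0.902), Abca3 (0.886) and Hk1, a hexokinase (0.882). For Grin2a they were Ttc39b (0.933), the kinase gene Cdc42bpa (0.923) and Kcnma1, the large-conductance potassium channel (0.919). For Grin2b they were Tmem245 (0.93), Dst, a giant cytoskeletal linker (0.918), and Usf3 (0.906). Grin2c had weaker neighbours, Slc27a1, a fatty acid transporter (0.753), Klhdc7a (0.743) and Acaa1a, a peroxisomal thiolase (0.732). Grin2d was nearest to Arhgef6 (0.838), Ptprm (0.835) and the synaptic organiser Cbln1 (0.832). Grin3a had the weakest, Ctnnb1 (0.653), Atp6v1a (0.652) and Cd200 (0.645).

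Of 21 scaffold and transport genes, which anchor and move the receptor, 1 rose and 2 fell for lithium over both genotypes, where 24.3% of all genes passed. The median log2 difference of the list was 0.003, against -0.002 over all genes. Snx27, a sorting nexin that returns receptors to the membrane, fell by 0.13 ± 0.02 (limma, adjusted p = 0.000109) and also passed within WT and HT. Lin7a, of the complex that carries receptor vesicles, fell by 0.13 ± 0.05 (limma, adjusted p = 0.0331), and Dlgap4, a postsynaptic density adaptor, rose by 0.09 ± 0.03 (limma, adjusted p = 0.0322). None of the 21 passed for fluoxetine, where 1.38% of all genes passed in WT, 3.54% in HT and 6.15% over both genotypes. None passed for genotype either, where 0.0% of all genes did.

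Of 21 kinase and phosphatase genes that act on the receptor, 3 rose and none fell for lithium over both genotypes, with a median of 0.016, where 24.3% of all genes passed (2164 higher and 2187 lower). They were Csnk2b, the regulatory subunit of casein kinase 2 (0.15 ± 0.03, limma, adjusted p = 0.000102), Fyn, a Src-family kinase that phosphorylates GluN2B (0.12 ± 0.03, limma, adjusted p = 0.00142), and Cdk5r1, the activator of Cdk5 (0.07 ± 0.03, limma, adjusted p = 0.0276). Fyn had means of 3803 ± 179 (SD, n = 9) in WT vehicle and 4086 ± 200 (n = 10) in WT lithium, and of 3860 ± 215 (n = 10) in HT vehicle and 4218 ± 167 (n = 9) in HT lithium. Dapk1, a death-associated kinase that binds GluN2B, was the single gene of the 4 lists to pass for fluoxetine. It was at 0.13 ± 0.03 in WT (limma, adjusted p = 0.0258), where 1.38% of all genes passed. Over both genotypes it was at 0.08 ± 0.02 (limma, adjusted p = 0.0197), where 6.15% passed.

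Of 20 calcium effectors downstream of the receptor, 1 rose and 2 fell for lithium over both genotypes, with a median of -0.028, where 24.3% of all genes passed. Nrgn, encoding the calmodulin-binding protein neurogranin, rose by 0.22 ± 0.06 (limma, adjusted p = 0.00599). Rasgrf2, a calcium-regulated exchange factor, fell by 0.13 ± 0.04 (limma, adjusted p = 0.0167), and Crtc1, a CREB coactivator, fell by 0.11 ± 0.02 (limma, adjusted p = 0.000351). Within HT alone Rasgrf2 and Crtc1 also passed.

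Of 18 genes of co-agonist and ligand supply, 16 were tested, and 4 rose and 1 fell for lithium over both genotypes, where 24.3% of all genes passed. The median was 0.067 against -0.002 over all genes. Psph, the last enzyme of L-serine synthesis, rose by 0.22 ± 0.05 (limma, adjusted p = 0.000613). Kyat3, a kynurenine aminotransferase, rose by 0.23 ± 0.07 (limma, adjusted p = 0.00925). Its means were 94 ± 15.4 (SD) normalized reads in WT vehicle and 117 ± 19.5 in WT lithium. In HT, where the means lay closer, they were 105 ± 18.3 under vehicle and 116 ± 15.1 under lithium. Of the glycine cleavage system Gcsh (0.12 ± 0.03) and Dld (0.07 ± 0.02) rose and Amt fell by 0.10 ± 0.03, so its parts did not move one way. No gene of the lists passed for genotype in any arm or over the 3 arms together, nor did any other gene tested.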

How the data were processed

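Bulk RNA sequencing of prefrontal cortex (strand-specific libraries of polyadenylated RNA, per the labels' protocols) gave 58 libraries in 12 groups of genotype, drug and sex, taken from the labels. The deposited values are a signal made by the authors, read counts scaled by the library's size factor, with Salmon 0.11.2, R 3.6.0, DESeq2 1.19.11 and build GRCm38 named in the submitters' processing notes. Values in each column were whole multiples of 1 step (0.788 to 1.303), 100.0% of them within 0.01, so reads were recovered for count tests; in 11 columns the step lies too near 1 for that test to tell. The lowest value of a member was 372 normalized reads. Size factors hide a general change in RNA per cell.

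All genes with at least 10 in at least 4 libraries (17925) entered 1 limma 3.58.1 trend fit on log2(value + 1), 12 groups, sexes weighed equally, in 15 comparisons. Values after ± are SEs of log2 differences unless SD is named, and log2(value + 1) understates changes of low genes. Tests were two-sided, with Benjamini-Hochberg adjustment over all genes and passing at 0.05. On simulated data the fit recovered the changes put in, which were larger than the member differences that passed here. Recovery at the size of those differences was not tested. Alternatives included edgeR 4.0.16 and DESeq2 1.42.0 on recovered reads. Annotation was GENCODE for GRCm38 (18077 genes matched). The lowest chi-square per degree of freedom among 1653 library pairs was 3.33, so no library was a repeat. The members and gene lists were chosen with earlier results of these data known. Besides the 6 members, named genes are the 3 with highest r to each, and list genes that passed. Dao, Kmo, Gabra6 and Barhl1 are not analysed here, and the motif bases of the other 3 members are not reported here.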

Additional observations from a re-analysis of the deposited data

Results flagged for a closer look

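In 84 sets of 4 or 5 mice (the 6 genes and the log2 ratio of Grin2a to Grin2b in 12 groups of genotype, drug and sex), 5 mice stood far enough from the rest of their group to be singled out by Dixon's test. Chance alone flags about 1 in 20 groups.

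Grin1 was 15996 normalized reads in HT vehicle female 2, while the other 4 females of that group lay between 13531 and 14155. Grin2b was 22168 in WT vehicle male 3, below the other 3 males at 23582 to 23665. Grin3a was 1990 in WT fluoxetine female 5, with the others at 1652 to 1729. The log2 ratio of Grin2a to Grin2b was -1.71 in WT fluoxetine male 5, against -1.61 to -1.58 in the rest of the group, and -1.88 in WT vehicle female 2, against -1.66 to -1.59. WT vehicle female 2 also had a length slope of 0.21, the highest in the WT vehicle arm.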

How the results depend on the processing

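For lithium in WT, where 1 of 6 members passed, 2 passed with only the compared groups fitted, and 0 passed in females only, in males only and with a term for Gm10221 reads. For lithium in HT, where 2 passed, 4 passed under quantile normalization and 0 in females only, in males only and with the Gm10221 term. For lithium over both genotypes, where 2 passed, 0 passed in females only, 1 in males only and 0 with the Gm10221 term. The cause was not tested, other than that a fit of a single sex holds fewer mice. In the fit of all 12 groups 7.47%, 16.3% and 24.3% of all genes passed in these comparisons. Shares of all genes in the alternative and leave-one-out fits are not given here, so these counts are not read as particular to the members. Leaving out 1 mouse at a time gave 1 to 1 for lithium in WT, 1 to 3 for lithium in HT, 2 to 3 over both genotypes, and 0 to 1 for genotype in lithium. For lithium over both genotypes Grin2c was at -0.12 ± 0.06 (limma, adjusted p = 0.122) and Grin3a at 0.09 ± 0.04 (limma, adjusted p = 0.106). With length and GC trends removed both passed, Grin2c at -0.19 ± 0.05 (limma, adjusted p = 0.00406) and Grin3a at 0.13 ± 0.05 (limma, adjusted p = 0.0294). With the trends left in, Grin2c passed there without HT vehicle male 1 (-0.15, adjusted p = 0.0347, limma), and Grin3a without HT lithium male 4 (0.12, adjusted p = 0.0237, limma). Grin2b in HT passed in 12 of 58 such fits.

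The order of levels per length held for 4 of 6 ranks with coding length. Signs turned for values near 0: Grin2c for lithium in WT was -0.05 in males only and -0.09 with length and GC trends removed, and between -0.01 and 0.09 with 1 mouse left out; Grin1 for lithium over both genotypes was -0.02 in males only; Grin2d there was -0.11 with the Gm10221 term and -0.07 with trends removed. For 23 single results, 293 of 320 values kept their direction and side of the threshold, 15 fell short of it, 7 newly passed and 5 changed sign. Results that had not passed could keep their side by staying short of the threshold, and the 15 losses all fell on results that had passed. For lithium over both genotypes Grin2a kept 10 values and lost 4, and Grin2b kept 12 and lost 2. Grin2b in WT, Grin2c in HT and Grin3a in HT each kept 11 and lost 3.

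Replicate numbers did not pair the mice: the mean correlation of deviations was -2e-04 for same numbers, and 9 of 58 libraries were closest to their own number. With the replicate number as a block, 1, 2 and 2 of 6 members passed for lithium in WT, in HT and over both genotypes, as without it, and Grin2b over both genotypes was at -0.21. Sex interactions have no value within 1 sex, and lithium has none among libraries without Gm10221 reads.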
